A study of Mus musculus with 70 samples.

Results

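The Toll-like receptor (TLR) family was followed through 4 sorted leukocyte populations of mice exposed to chronic social defeat stress (CSDS). The 10 genes were chosen by name, with earlier results of these data known: Tlr1, Tlr2, Tlr3, Tlr4, Tlr6, Tlr7, Tlr8, Tlr9, Tlr11 and Tlr13. The mouse TLR genes Tlr5 and Tlr12 are not among them and are described at the end. All 10 were among the 52636 genes of the count table. The libraries came from C57BL/6J mice aged 7 to 8 weeks. CON mice were not defeated, whereas SUS (stress-susceptible) and RES (resilient) mice had both gone through 10 days of CSDS by aggressive CD-1 mice and were told apart afterwards by their social interaction. Ly6Chigh monocytes, Ly6Clow monocytes, B cells and T cells (Ly6high, Ly6low, Bcells and Tcells in the labels) were sorted from blood according to the study's methods, although the sample labels name brain as the source, and this conflict was not resolved. Each of the 12 groups held 6 libraries, except for 4 of Ly6Clow monocytes from CON mice and 5 each of B cells and T cells from RES mice. The labels name no mouse, so the p-values measure the spread between libraries, part of which may be technical.

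Totals ran from 19769835 to 67038231 counts per library, with a median of 37105584. In 68 of 68 libraries the marker list of the sorted population had the highest mean log2 level among the lists of the 4 populations. Libraries 52 (labelled B cells) and 70 (labelled T cells), both of RES mice, carried the markers of the other lymphocyte and were left out. Levels are CPM (counts scaled to a common library size) after TMM normalization over the 68 libraries, given as mean ± SD. A gene was called when edgeR's quasi-likelihood F test gave an adjusted p under 0.05 together with an absolute log2 fold change above 1.

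TLRs are pattern recognition receptors that bind conserved molecules of microbes, and of damaged cells, and start inflammatory and interferon responses. Tlr1, Tlr2, Tlr4 and Tlr6 encode receptors of the cell surface that sense bacterial lipids and lipoproteins. Tlr3, Tlr7, Tlr8, Tlr9, Tlr11 and Tlr13 encode endosomal receptors, most of which sense nucleic acids, and which depend on the transporter encoded by Unc93b1 to reach the endosome. Most members signal through the adaptor encoded by Myd88. Monocytes carry a broad set of these receptors, B cells are known for responses to CpG DNA through TLR9, and resting T cells have few of them.

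In CON mice, the endosomal receptors led both monocyte populations. Compared between genes per length of transcript, as CPM per kilobase of the gene's exons (CPM per kb), Tlr13, the sensor of bacterial ribosomal RNA, had a mean of 71.6 CPM per kb in Ly6Chigh and 82.0 CPM per kb in Ly6Clow monocytes. Tlr7, a receptor for single-stranded RNA, followed with 53.3 and 70.3 CPM per kb. In Ly6Chigh monocytes the order continued with Tlr9 at 46.2, Tlr8 at 33.3, Tlr2 at 28.6, Tlr6 at 7.34, Tlr1 at 5.16, Tlr4 at 4.13, Tlr11 at 1.63 and Tlr3 at 0.442 CPM per kb. Most neighbours in this order overlapped between libraries, and the ranges were separate only between Tlr9 and Tlr8 and between Tlr2 and Tlr6. In Ly6Clow monocytes, Tlr8 (27.5 CPM per kb) stood ahead of Tlr9 (20.9) and Tlr2 (15.9), and Tlr4 (6.03) ahead of Tlr6 (4.72) and Tlr1 (4.19). There the ranges of neighbours were separate between Tlr7 and Tlr8, Tlr2 and Tlr4, and Tlr1 and Tlr11.

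B cells and T cells had other leading members. In B cells of CON mice Tlr9, the receptor for CpG DNA, reached 39.5 CPM per kb, above Tlr1 with 21.3 and Tlr7 with 4.73 CPM per kb, and neither step of this order overlapped between libraries. In T cells Tlr1, which pairs with TLR2 to bind triacylated lipoproteins, led with 10.6 CPM per kb, followed by Tlr6 with 1.65 and Tlr7 with 1.59 CPM per kb. Tlr1 was separate from the rest in T cells, whereas Tlr6 and Tlr7 overlapped.

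**Figure D1:**
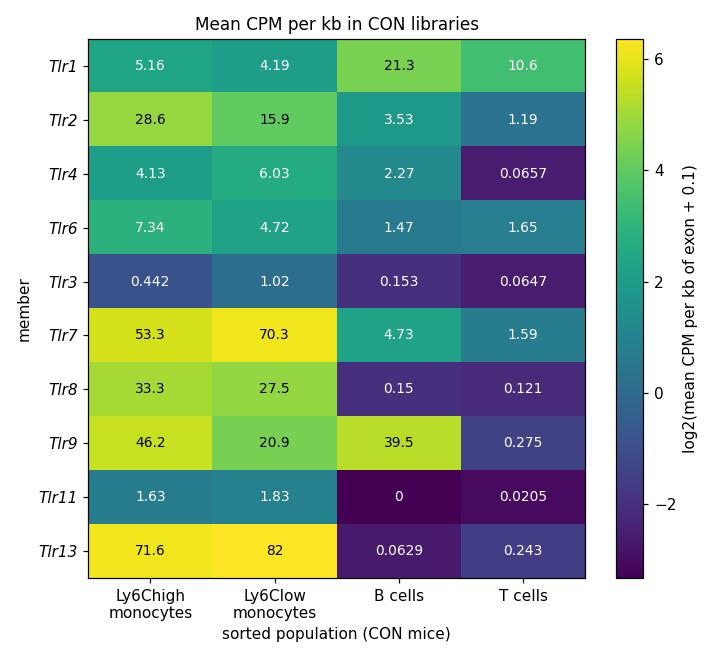
Mean CPM per kilobase of exon of the 10 members in the libraries of CON mice, as a heat map coloured on a log2 scale. The mean is printed in each cell, with the 4 cell types side by side. Tlr13 and Tlr7 head both monocyte populations (71.6 and 53.3 CPM per kb in Ly6Chigh monocytes), Tlr9 heads B cells (39.5) and Tlr1 heads T cells (10.6).

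The summed level of the 10 members in CON mice was 252 CPM per kb in Ly6Chigh and 234 CPM per kb in Ly6Clow monocytes, against 73.1 in B cells and 15.8 in T cells. Endosomal members made up 82.0% ± 0.925 (n = 6) of this sum in Ly6Chigh monocytes and 86.8% ± 1.10 (n = 4) in Ly6Clow monocytes, against 60.7% ± 5.66 (n = 6) in B cells and 13.7% ± 6.44 (n = 6) in T cells. Tlr13 alone made up 28.4% and 35.0% of the sum in the monocyte populations, Tlr9 made up 54.0% in B cells and Tlr1 made up 66.9% in T cells. These sums and shares leave out Tlr12, which had 7.32 CPM per kb in T cells, so the T cell shares depend on the choice of members.

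Differences between cell types were tested on the 22 CON libraries across 21032 genes. In Ly6Chigh monocytes vs. T cells 10 of 10 members were called, 9 of them higher in monocytes, against 32.8% of all genes (16.7% higher in monocytes and 16% lower). In Ly6Clow monocytes vs. T cells the count was again 10 of 10 with 9 higher, against 28.5% of all genes (15.9% higher and 12.6% lower). Against B cells, 7 members were called in Ly6Chigh monocytes, 6 of them higher (background 33.1% of genes, 18.3% higher and 14.8% lower), and 8 in Ly6Clow monocytes, 7 of them higher (background 30.3%, 18% higher and 12.2% lower). Tlr1 was the called member on the lower side in each of these 4 comparisons. B cells vs. T cells gave 5 called members, 4 higher in B cells, against 20.2% of genes (8.98% higher in B cells and 11.2% lower).

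Tlr13, Tlr8 and Tlr11 were monocyte genes in these libraries. Tlr13 had 308 ± 18.1 CPM in Ly6Chigh and 353 ± 53.2 CPM in Ly6Clow monocytes of CON mice, against 0.271 ± 0.174 CPM in B cells and 1.05 ± 1.54 CPM in T cells. The log2 fold change of Ly6Chigh monocytes vs. B cells was 10.13 (SE 0.93, adjusted p = 2.44e-08, edgeR). Tlr8, an endosomal receptor for RNA breakdown products, had 120 ± 21.3 and 98.5 ± 4.84 CPM in the monocytes and 0.538 ± 0.851 and 0.432 ± 0.771 CPM in B cells and T cells. Tlr11, which binds profilin of apicomplexan parasites, had 5.33 ± 4.18 and 5.98 ± 2.29 CPM in the monocytes. In T cells it had 0 to 12 counts per library, and in B cells 6 of 6 CON libraries had none. Set against a floor of 3 counts per library, 0.0919 CPM, the Tlr11 level was at least 58.0-fold higher in Ly6Chigh and at least 65.1-fold higher in Ly6Clow monocytes than in B cells. The call of Tlr11 between B cells and T cells rests on those few counts and was lost without T cell CON replicate 3 (adjusted p = 0.0985, edgeR).

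Some T cell libraries held counts of the myeloid gene Spi1, which encodes the transcription factor PU.1. Spi1 had 382 ± 60.6 CPM in Ly6Chigh monocytes, 410 ± 47.9 CPM in Ly6Clow monocytes and 94.6 ± 13.7 CPM in B cells of CON mice. T cell replicates 1 and 2 of CON, SUS and RES mice, numbered in the order of deposit, had 5.55 to 8.38 CPM, and the other 11 T cell libraries had at most 1.92 CPM. Tlr13 followed the same division, with 2.42 to 6.68 CPM in those 6 libraries and at most 0.272 CPM in the other 11. Tlr4 and Tlr9 did not: the highest Tlr4 library, CON replicate 6 with 2.14 CPM, had 0.0824 CPM of Spi1, RES replicate 5 had 2.53 CPM of Tlr9 with no Spi1 count, and SUS replicate 2, the highest for Spi1, had no count of Tlr4 or Tlr8. Other cells in the gate and transcripts of T cells cannot be told apart in bulk libraries, just as fewer cells of a type and less RNA per cell cannot be told apart.

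Tlr9 was shared by monocytes and B cells. CON libraries had 161 ± 17.2 CPM in Ly6Chigh monocytes, 137 ± 28.2 CPM in B cells, 72.6 ± 14.2 CPM in Ly6Clow monocytes and 0.958 ± 1.13 CPM in T cells. The ranges of Ly6Chigh monocytes and B cells overlapped, and those of all other neighbours in this order did not. B cells exceeded T cells by 7.12 on the log2 scale. Tlr7 was also above T cells in B cells, with 19.3 ± 5.08 vs. 6.49 ± 3.15 CPM, and far higher in Ly6Chigh (217 ± 43.8 CPM) and Ly6Clow monocytes (287 ± 29.9 CPM). Tlr3, the receptor for double-stranded RNA, stayed at 5.30 ± 1.58 CPM or less in each CON population and overlapped between all neighbours in its order.

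Among the surface receptors, Tlr1 ran opposite to the rest. B cells of CON mice had 71.1 ± 8.94 CPM, T cells 35.4 ± 4.93 CPM, Ly6Chigh monocytes 17.3 ± 5.43 CPM and Ly6Clow monocytes 14.0 ± 2.11 CPM, and only the monocyte populations overlapped. Ly6Chigh monocytes were lower than B cells (adjusted p = 1.87e-10, edgeR), and their difference from T cells was -1.04 (SE 0.17) on the log2 scale. The latter fell short of the fold threshold without Ly6Chigh CON replicate 2 (-0.92) or T cell CON replicate 2 (-0.97). B cells vs. T cells missed the fold threshold at 0.97 (adjusted p = 4.19e-05, edgeR). It passed with all 12 groups in the fit (1.01) and in 5 of 12 fits with a library left out, which ranged from 0.91 to 1.03: those without B cell CON replicates 2, 5 or 6 or T cell CON replicates 1 or 2.

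Tlr2, the common partner of TLR1 and TLR6, declined across Ly6Chigh monocytes (86.2 ± 10.6 CPM), Ly6Clow monocytes (48.0 ± 9.18), B cells (10.6 ± 1.23) and T cells (3.60 ± 1.78), with no overlap between neighbours. Tlr6, for diacylated lipoproteins, was at 27.4 ± 4.89 and 17.6 ± 2.33 CPM in the monocytes and at 5.47 ± 1.09 and 6.15 ± 2.76 CPM in B cells and T cells, which overlapped. Tlr4, the lipopolysaccharide receptor, had 33.5 ± 10.7 CPM in Ly6Clow and 23.0 ± 6.41 CPM in Ly6Chigh monocytes, which overlapped, 12.6 ± 3.99 in B cells and only 0.365 ± 0.870 in T cells, where 3 of 6 CON libraries had no count. Its difference between Ly6Clow monocytes and B cells, 1.46 (SE 0.79), was not called with all 4 cell types in the fit (adjusted p = 0.151, edgeR) and was called with these cell types alone (1.41, adjusted p = 0.000549).

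Of the 3346 bases of Tlr1 exons and 3727 of Tlr6, 10.6% and 9.25% of 75-base stretches also occur in other genes, mainly each other for Tlr6, so reads of this neighbouring gene pair on chromosome 5 could be split between them. The other 8 members shared no stretch of that length. Tlr3 overlaps the antisense gene Gm45542, and the strand setting of the counting is not given in the sources used here.

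With all 4 cell types in the fit, no member was called between the monocyte populations. Between Ly6Chigh and Ly6Clow monocytes of CON mice, 0 of 10 members passed both thresholds in edgeR and 0 in DESeq2, against 11.2% of all genes in edgeR, and 2 had an unadjusted p under 0.05. Tlr2 passed the adjusted p alone with a log2 fold change of 0.84 (SE 0.25, adjusted p = 0.0190, edgeR), as did 19.3% of all genes. Tlr9 was called when those 2 populations alone were fitted (1.13, adjusted p = 2.08e-06, edgeR), and its CON libraries did not overlap (142 to 185 CPM in Ly6Chigh, 62.4 to 93.0 CPM in Ly6Clow monocytes). The same fit put Tlr2 (0.82, adjusted p = 0.000134), Tlr6 (0.62, adjusted p = 0.0177) and Tlr7 (-0.42, adjusted p = 0.0159, edgeR) past the adjusted p alone. CON libraries of Tlr2 and Tlr6 did not overlap between the monocyte populations, and those of Tlr7 did. The share of all genes in this fit is not given.

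**Figure D2:**
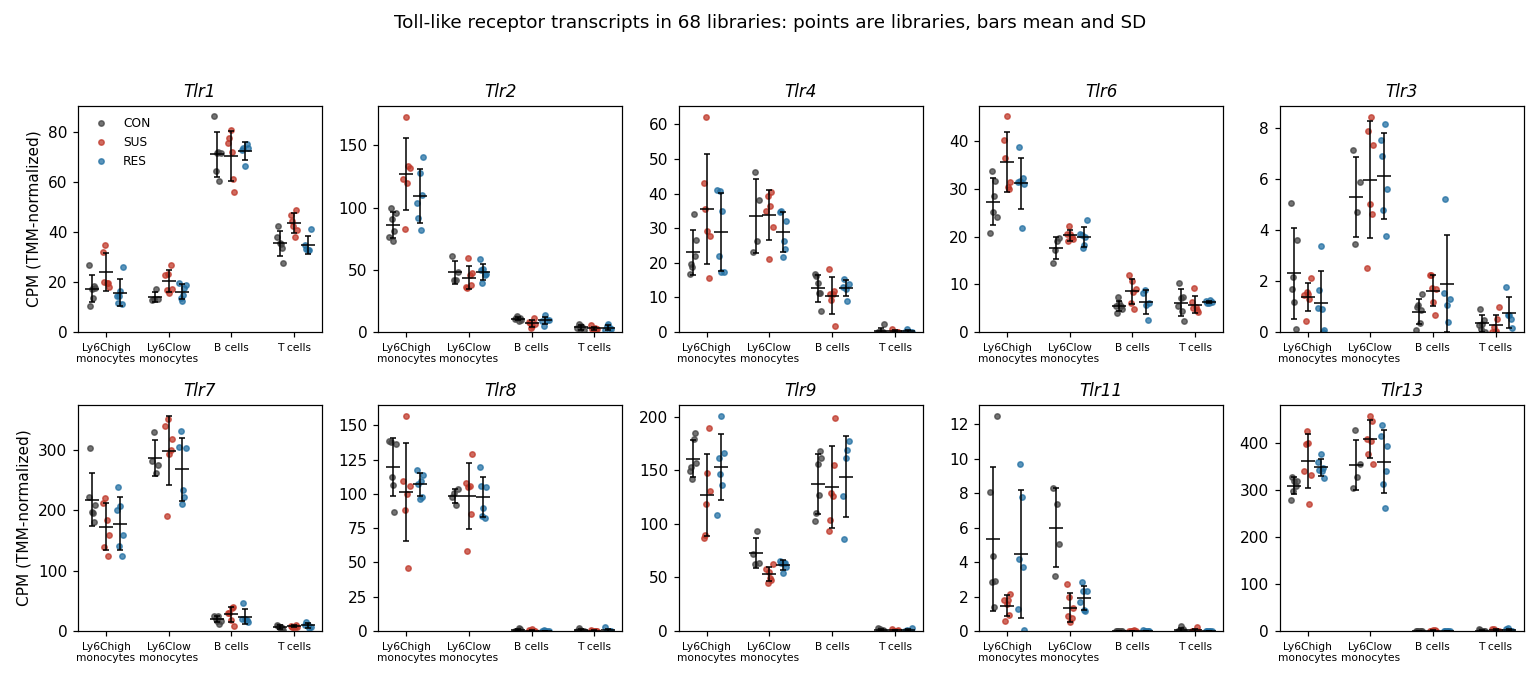
Levels of the 10 members in the 68 libraries by cell type and stress group, as CPM, one point per library. Tlr13, Tlr8 and Tlr11 lie close to 0 in B cells and T cells, Tlr9 lies close to 0 in T cells, and Tlr1 is highest in B cells (71.1 CPM in CON mice).

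Promoter sequences are shown for the members with the sharpest cell type pattern that have an entry, Tlr8, Tlr9 and Tlr13, and for Tlr11, whose level differed after stress. Each window is the 250 bases before the RefSeq start in GRCm38.p6, written 5′ to 3′ on the strand of the gene, with the core of the PU.1 box, GAGGAA on either strand, in capitals (TTCCTC where it lies on the opposite strand). The windows are chrX:106143025-106143274 (+ strand) for Tlr13, chrX:167264330-167264579 (- strand) for Tlr8, chr9:106222348-106222597 (+ strand) for Tlr9 and chr14:50357664-50357913 (+ strand) for Tlr11.
Tlr13: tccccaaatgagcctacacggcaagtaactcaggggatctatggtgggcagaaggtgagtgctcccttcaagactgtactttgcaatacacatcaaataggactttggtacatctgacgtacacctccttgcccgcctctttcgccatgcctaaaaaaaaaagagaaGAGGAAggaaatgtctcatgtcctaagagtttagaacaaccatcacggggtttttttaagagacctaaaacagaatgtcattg
Tlr8: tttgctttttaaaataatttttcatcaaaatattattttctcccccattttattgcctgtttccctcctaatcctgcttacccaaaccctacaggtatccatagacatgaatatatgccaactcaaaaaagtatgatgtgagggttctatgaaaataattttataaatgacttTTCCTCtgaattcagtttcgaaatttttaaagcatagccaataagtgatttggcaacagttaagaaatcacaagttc
Tlr9: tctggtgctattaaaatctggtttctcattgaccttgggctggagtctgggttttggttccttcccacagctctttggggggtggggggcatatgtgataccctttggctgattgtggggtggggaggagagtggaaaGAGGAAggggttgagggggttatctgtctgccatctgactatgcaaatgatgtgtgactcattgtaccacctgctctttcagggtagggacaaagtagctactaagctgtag
Tlr11: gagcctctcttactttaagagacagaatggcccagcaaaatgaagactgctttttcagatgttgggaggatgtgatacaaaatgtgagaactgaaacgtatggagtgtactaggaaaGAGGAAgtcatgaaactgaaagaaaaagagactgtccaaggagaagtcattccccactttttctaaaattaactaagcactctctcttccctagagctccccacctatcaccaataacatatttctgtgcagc
The first match began at position -83 from the start in Tlr13, -77 in Tlr8, -112 in Tlr9 and -133 in Tlr11. Of the 10 members, 8 had a promoter in the table, and 5 of these 8 held the core in at least 1 window. The fifth was Tlr1, in 1 of its 2 windows. Among all promoters 7639 of 32851 windows held it (23.3%), a share counted per window and not per gene. The windows of Tlr2, Tlr3 and Tlr6 held no match. An interferon regulatory factor element, searched on both strands, occurred in a window of Tlr11 and of Tlr6, and in 2.98% of all promoters. The TATA box TATAAA occurred in windows of Tlr8 and Tlr6, and in 12.4% of all promoters. For Tlr4 and Tlr7 no promoter is shown. The RefSeq start of Tlr13 lies inside the GENCODE gene. A match of letters is a description of the window and does not show binding.

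Stress was compared within each cell type between SUS and CON, RES and CON, and SUS and RES mice, to ask which transcripts differ after CSDS. The only member called was Tlr11, which fell in Ly6Clow monocytes of SUS vs. CON mice. Tlr11 (ENSMUSG00000051969) lies on the + strand at chr14:50357914-50363663 in GRCm38. In Ly6Clow monocytes 10 of 10 members were tested, and 1 of 10 was called against 0.0871% of 19521 genes (17 genes). The 4 CON libraries had 8.30, 3.21, 7.35 and 5.06 CPM of Tlr11, from 142 to 335 counts. The 6 SUS libraries had 2.71, 0.869, 1.97, 0.520, 0.742 and 1.32 CPM, from 21 to 101 counts. Every SUS library lay below every CON library. The log2 fold change was -2.15 (SE 0.47, adjusted p = 0.0444, edgeR). The exact permutation test of log2 levels, two-sided, gave p = 0.00476, the smallest that the 210 splits of 4 and 6 libraries allow.

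RES mice had Tlr11 levels close to those of SUS mice in this population. Their libraries had 1.67, 2.84, 2.33, 1.21, 1.17 and 2.31 CPM, again with no overlap with CON mice, and the exact permutation p was 0.00476. The log2 fold change of -1.66 (SE 0.46) was not called in edgeR (adjusted p = 0.184) and was called in DESeq2 (-1.68, adjusted p = 0.0282). In RES vs. CON mice edgeR called 0 of 10 members, against 0.0154% of genes. In edgeR 2 members were at an unadjusted p under 0.05, against 9.67% of genes. DESeq2 called 1 of 10 members, and the share of all genes that it called was not computed. SUS and RES mice overlapped, with a difference of -0.49 (SE 0.42, adjusted p = 1.00). Both comparisons share the same 4 CON libraries.

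The call of Tlr11 in Ly6Clow monocytes stood close to its threshold. It was kept by DESeq2 (adjusted p = 0.00153) and lost when SUS and CON mice alone were fitted (adjusted p = 0.0971, edgeR). Leaving out 1 library at a time kept it in 3 of 10 fits, with log2 fold changes from -2.47 to -1.96 and adjusted p from 0.0413 to 0.189. It was lost without CON replicates 1, 3 or 4 and without SUS replicates 2, 3, 4 or 5.

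Markers of other cells are given beside the Tlr11 difference as group values, which were not related to Tlr11 library by library. In Ly6Clow monocytes, 6 markers of type 1 conventional dendritic cells summed to 468 to 589 CPM in CON libraries, with 431 to 539 CPM after stress in SUS mice and 440 to 548 CPM in RES mice. Most of this sum came from Wdfy4, and none of the 6 was at 0 in a whole group. The defining gene Clec9a had 19.2 ± 11.3 CPM in CON mice, against 6.84 ± 4.17 (SUS) and 10.6 ± 6.43 CPM (RES), and Xcr1 had 3.14 ± 1.17, 1.87 ± 1.14 and 2.20 ± 0.746 CPM. The 6 red cell markers summed to 295 to 1259 CPM in CON libraries, against 859 to 2691 (SUS) and 877 to 3919 CPM (RES). Thus the red cell sums were on the higher side and Clec9a on the lower side in stressed mice, while the sums of the dendritic cell list overlapped. Clec9a and Xcr1 were the only genes of that list whose levels are given singly. Natural killer markers summed to 291 to 954, 393 to 1033 and 574 to 1540.4 CPM in the same order, and plasmacytoid dendritic cell markers to 62.1 to 86.6, 66.4 to 79.3 and 61.8 to 78.8 CPM. The part of these cells in the Tlr11 difference was not tested.

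Tlr9 was the other member of Ly6Clow monocytes whose SUS and CON libraries did not overlap. The 4 CON libraries had 71.5, 62.4, 93.0 and 63.6 CPM. The 6 SUS libraries ran from 45.2 over a median of 52.5 to 62.1 CPM, and the 6 RES libraries from 53.8 over 63.5 to 65.5 CPM. The highest SUS library lay just under the lowest CON library, and RES libraries overlapped with both groups. The difference of SUS vs. CON mice was -0.46 (SE 0.12), with an adjusted p of 0.104 in edgeR and 0.0319 in DESeq2 and a permutation p of 0.00952 (exact, two-sided). Without CON replicate 3, the highest library, it was -0.31 (adjusted p = 0.435, edgeR). Of genes with at least 1 CPM, 2.33% had SUS libraries fully apart from CON libraries, and 3.24% had RES libraries fully apart from them, with Tlr11 as the only such member.

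**Figure D3:**
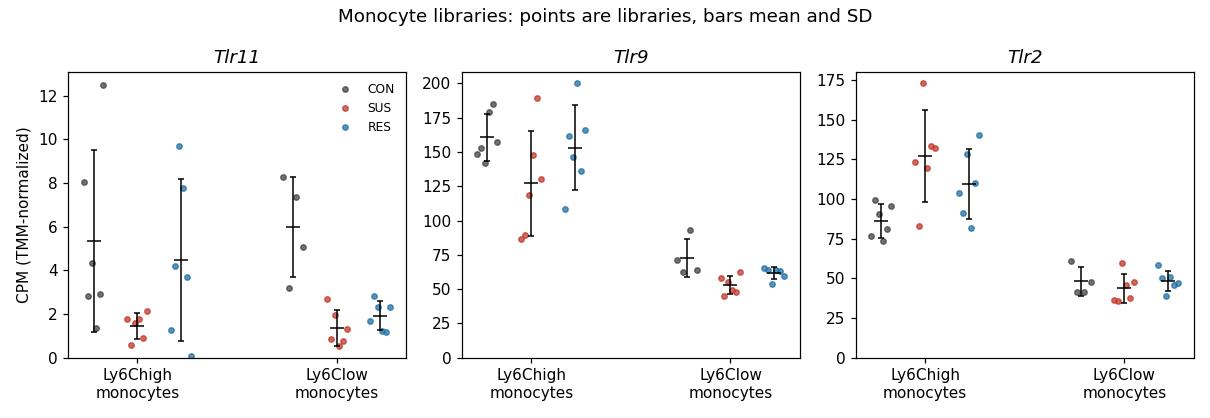
CPM of Tlr11, Tlr9 and Tlr2 in monocyte libraries of CON, SUS and RES mice; points are libraries, and horizontal and vertical bars give the mean and SD. In Ly6Clow monocytes the 6 SUS libraries have 0.520 to 2.71 CPM of Tlr11, below the 3.21 to 8.30 CPM of the 4 CON libraries, and Tlr2 separates in Ly6Chigh monocytes for 5 of 6 SUS libraries.

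The other 8 members of Ly6Clow monocytes were not called. Tlr1 had a log2 fold change of 0.53 (SE 0.19, adjusted p = 0.301, edgeR) in SUS vs. CON mice, from 14.0 ± 2.11 to 20.4 ± 4.52 CPM, with overlapping libraries. Tlr2, Tlr3, Tlr4, Tlr6, Tlr7, Tlr8 and Tlr13 lay between -0.14 and 0.20 on the log2 scale. Unadjusted p was under 0.05 for 3 of 10 members (Tlr1, Tlr9 and Tlr11), against 9.51% of genes. The median log2 fold change of the members was 0.03, and that of all genes tested was -0.01. SUS vs. RES mice gave 0 called members in edgeR and in DESeq2, 1 at an unadjusted p under 0.05 (Tlr1, against 3.79% of genes), and 0% of genes called.

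In Ly6Chigh monocytes the surface and endosomal receptors had log2 fold changes of mostly opposite sign in SUS vs. CON mice, and edgeR called none. There 10 of 10 members were tested, and 3.45% of 16955 genes were called (585 genes). The estimates were positive for 4 of 4 surface members, with 0.53 for Tlr2, 0.58 for Tlr4, 0.44 for Tlr1 and 0.35 for Tlr6, and negative for 5 of 6 endosomal members, with -0.37 for Tlr7, -0.37 for Tlr9, -0.29 for Tlr8, -0.77 for Tlr3 and -1.89 for Tlr11. Tlr13 was at 0.19. The median over the members was -0.05, equal to the median over all genes, -0.05. Unadjusted p was under 0.05 for 6 of 10 members (Tlr2, Tlr4, Tlr6, Tlr7, Tlr9 and Tlr11), against 26.5% of genes. DESeq2 called 1 member, Tlr11, and the share of all genes that it called was not computed.

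**Figure D4:**
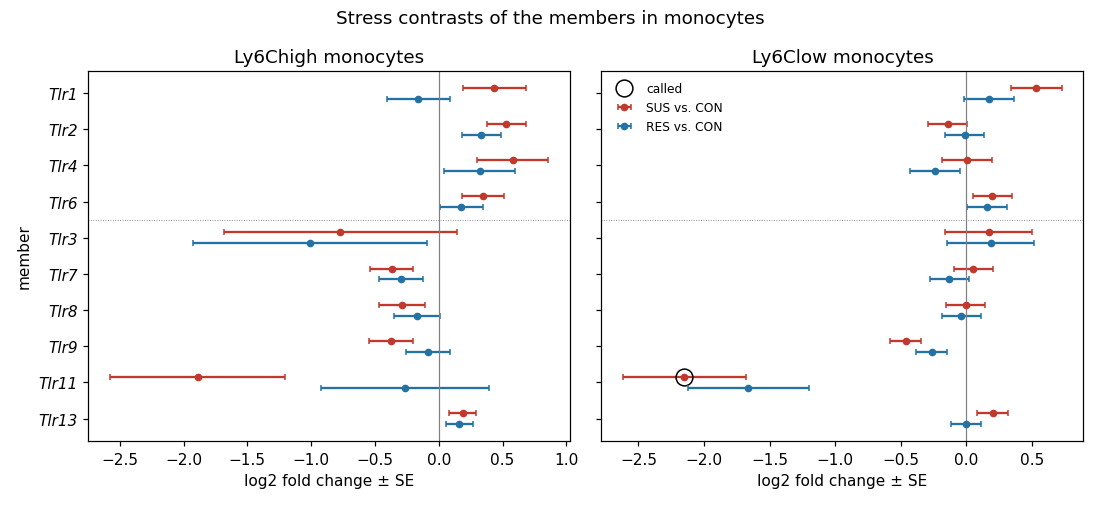
Log2 fold changes with SE (edgeR) of SUS vs. CON and RES vs. CON mice for the 10 members in Ly6Chigh and Ly6Clow monocytes; a dotted line separates surface from endosomal members and a circle marks the called member. In Ly6Chigh monocytes the 4 surface members lie right of 0 in SUS vs. CON mice and 5 of 6 endosomal members left of it. In Ly6Clow monocytes Tlr11 is called, at -2.15.

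Tlr2 was the member of Ly6Chigh monocytes that passed the adjusted p alone, and it rose in SUS mice by less than the fold threshold. CON libraries ran from 73.5 over a median of 86.0 to 99.4 CPM, and SUS libraries from 82.9 over 128 to 173 CPM. Of the 6 SUS libraries, 5 lay above all CON libraries. The log2 fold change was 0.53 (SE 0.15, adjusted p = 0.0231, edgeR), a criterion that 12.6% of genes met, and the exact permutation p was 0.00866. Leaving out 1 library at a time moved the adjusted p from 0.00578 to 0.0685, and it was above 0.05 without CON replicates 1, 4 or 5 or SUS replicate 3. RES mice had 82.0 to 141 CPM (109 ± 22.1) and a log2 fold change of 0.33 (SE 0.15, adjusted p = 0.200, edgeR), with an exact permutation p of 0.0411.

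The same members in Ly6Clow monocytes gave another value for Tlr2, and the difference between the populations was tested as an interaction over the 34 monocyte libraries. Tlr2 levels in Ly6Clow monocytes were 48.0 ± 9.18 in CON, 43.7 ± 9.22 in SUS and 48.5 ± 6.44 CPM in RES mice. The SUS effect in Ly6Clow minus that in Ly6Chigh monocytes was -0.67 (SE 0.22, unadjusted p = 0.00374, adjusted p = 0.171, edgeR). The interaction was -0.25 (SE 0.89) for Tlr11 and -0.08 for Tlr9. Of the 10 members 0 passed, with 1 at an unadjusted p under 0.05, against 0.00472% of 21178 genes for the SUS effect and 0% for the RES effect. For the RES effect 0 members were at an unadjusted p under 0.05. No stress effect was thus shown to differ between the monocyte populations.

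Tlr11 in Ly6Chigh monocytes varied widely in CON mice. CON libraries ran from 1.38 over a median of 3.63 to 12.5 CPM, SUS libraries from 0.577 over 1.69 to 2.15 CPM, and RES libraries from 0.0552 over 3.95 to 9.71 CPM. SUS libraries overlapped with the lowest CON library alone, and RES libraries spanned nearly the whole CON range. The log2 fold change of SUS vs. CON mice was -1.89 (SE 0.68, adjusted p = 0.0702, edgeR), with an exact permutation p of 0.0108. It was called in DESeq2 (-1.97, adjusted p = 0.0175) and with SUS and CON mice alone in edgeR (-1.90, adjusted p = 0.0283). For RES vs. CON mice it was -0.26 (SE 0.66, adjusted p = 0.865, edgeR). There 0 of 10 members were called in edgeR or DESeq2, against 0.997% of genes in edgeR. In edgeR 1 member (Tlr2) was at an unadjusted p under 0.05, against 21.2% of genes.

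Other members of Ly6Chigh monocytes had overlapping groups. Tlr13 had 308 ± 18.1 in CON, 360 ± 57.6 in SUS and 347 ± 17.7 CPM in RES mice. A single RES library of 6 fell inside the CON range (p = 0.00433, exact permutation test), while the fit over all genes gave 0.16 (SE 0.11, adjusted p = 0.413, edgeR). Tlr7 had 217 ± 43.8, 173 ± 39.1 and 178 ± 43.7 CPM, and Tlr9 had 161 ± 17.2, 127 ± 38.5 and 153 ± 31.1 CPM, with overlapping groups. The remaining surface receptors had 23.0 ± 6.41, 35.5 ± 15.9 and 28.9 ± 11.3 CPM for Tlr4, 27.4 ± 4.89, 35.6 ± 6.22 and 31.2 ± 5.40 CPM for Tlr6, and 17.3 ± 5.43, 24.0 ± 7.44 and 15.6 ± 5.39 CPM for Tlr1. Tlr8 had 120 ± 21.3, 101 ± 35.7 and 107 ± 8.43 CPM and Tlr3 2.30 ± 1.79, 1.38 ± 0.545 and 1.14 ± 1.25 CPM, and the groups overlapped in each of these genes. Over the 10 members, 2 monocyte populations and 3 contrasts, 60 exact tests were run and 12 had a p under 0.05 without adjustment. SUS vs. RES mice gave 0 called members in edgeR and in DESeq2, 2 at an unadjusted p under 0.05 (Tlr1 and Tlr11, against 3.66% of genes), and 0% of genes called.

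The make-up of the family in Ly6Chigh monocytes was described by its endosomal share. This share of the summed CPM per kb was 82.0% ± 0.925 (80.9 to 82.9%) in CON, 74.7% ± 2.79 (71.7 to 78.1%) in SUS and 78.5% ± 3.78 (74.6 to 84.3%) in RES mice. SUS libraries lay below all CON libraries, and RES libraries overlapped with both. Of 13509 genes with at least 1 CPM in this population, 8.44% had SUS libraries fully apart from CON libraries, and 0 members did. The sum itself was 252, 257 and 254 CPM per kb in CON, SUS and RES mice. In Ly6Clow monocytes the share was 86.8% ± 1.10, 86.8% ± 0.980 and 86.1% ± 1.25. The share is given as a description, with no test.

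**Figure D5:**
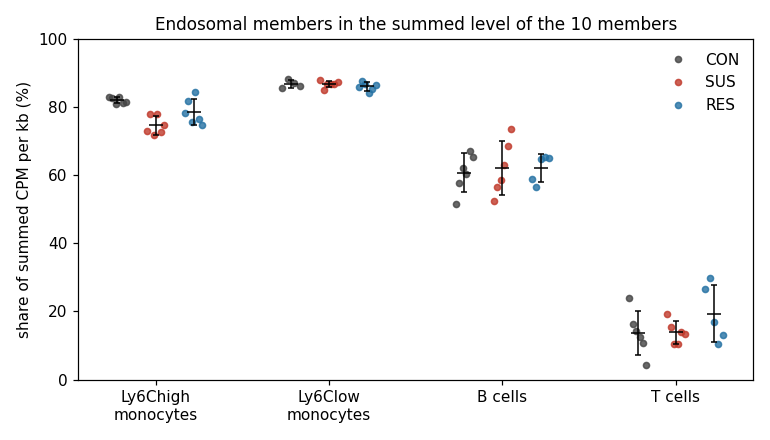
Share of the 6 endosomal members in the summed CPM per kb of the 10 members, in %, by cell type and stress group; points are libraries, bars mean and SD. In Ly6Chigh monocytes SUS libraries (71.7 to 78.1%) lie below CON libraries (80.9 to 82.9%), and in Ly6Clow monocytes the 3 groups overlap.

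Red cell markers in Ly6Chigh monocytes summed to 343 to 1215 CPM in CON libraries, against 1097 to 8988 (SUS) and 1077 to 4348 CPM (RES). Neutrophil markers summed to 14.5 to 131, 10.5 to 571 and 0.663 to 272 CPM. The defining gene Ly6g was at or below 1.13 CPM in every monocyte library. The larger sums thus came from other genes of this list, which are not given singly. Plasmacytoid dendritic cell markers summed to 82.7 to 134 CPM in CON and 35.1 to 107 CPM in SUS libraries, with RES libraries overlapping both. The type 1 dendritic cell list summed to medians of 366 CPM in CON, 405 in SUS and 426 in RES libraries, with overlapping ranges. The list median was thus not lower after stress. Clec9a, the only 1 of its 6 genes given here, went the other way. It had 6.42 ± 1.95 CPM in CON mice, against 1.06 ± 0.744 (SUS) and 1.37 ± 1.47 CPM (RES). The part of these cells in the receptor differences was not tested.

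In B cells 9 of 10 members were tested and 0 were called in any contrast by edgeR or DESeq2. The edgeR background was 0.00568% of 17620 genes in SUS vs. CON mice and 0% in the other contrasts. Tlr2 had 10.6 ± 1.23 CPM in CON and 6.76 ± 2.82 CPM in SUS mice, a log2 fold change of -0.65 (SE 0.27, unadjusted p = 0.0252, adjusted p = 0.999, edgeR). Tlr6 had 5.47 ± 1.09 and 8.49 ± 2.69 CPM, a log2 fold change of 0.64 (SE 0.29, unadjusted p = 0.0384, adjusted p = 0.999). These 2 were the members at an unadjusted p under 0.05 in SUS vs. CON mice (background 3.42%), and 0 were in RES vs. CON mice (3.18%) or between SUS and RES mice (1.36%). Tlr9, the leading member, had 137 ± 28.2, 134 ± 38.1 and 144 ± 37.8 CPM in CON, SUS and RES mice, with overlapping groups.

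In T cells 7 of 10 members were tested, and Tlr4, Tlr8 and Tlr11 were too low. None was called by edgeR or DESeq2. The edgeR background was 0.0265% of 18860 genes in SUS vs. CON mice and 0% in the other contrasts. Tlr1 had 43.5 ± 3.96 CPM in SUS mice, against 35.4 ± 4.93 (CON) and 34.9 ± 3.60 CPM (RES). The SUS libraries (38.1 to 48.9 CPM) overlapped with CON (27.4 to 42.3 CPM) and RES libraries (32.8 to 41.2 CPM). The log2 fold changes were 0.29 (SE 0.12, adjusted p = 0.795, edgeR) vs. CON and 0.31 (SE 0.12, adjusted p = 1.00) vs. RES mice. Tlr1 was the 1 member at an unadjusted p under 0.05 in each of these contrasts (background 4.8% and 2.39%), and 0 were in RES vs. CON mice (4.11%).

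Of 61 other genes of the TLR pathway (co-receptors, chaperones, proteases, adaptors, kinases, transcription factors, cytokines and inhibitors), 54 were tested in Ly6Chigh monocytes. There 5 were called in SUS vs. CON mice, 4 higher and 1 lower (5 of 54, against 3.45% of all genes), and 13 passed the adjusted p alone, 9 higher and 4 lower (13 of 54, against 12.6% of all genes). DESeq2 called 6, the same 5 and Cd36, a scavenger receptor that had 15.4 ± 7.09 CPM in CON and 7.23 ± 2.89 CPM in SUS mice (-1.12, SE 0.41, adjusted p = 0.0754, edgeR). Their median log2 fold change was 0.05, and that of all genes -0.05. In RES vs. CON mice 2 were called (background 0.997%), by edgeR and by DESeq2, and 8 passed the adjusted p alone (background 4.97%), all 8 higher. The tested numbers were 54 for Ly6Clow monocytes, 48 for B cells and 52 for T cells, and edgeR called 0 there in each contrast. At an unadjusted p under 0.05 were 11 of 54 for SUS (background 9.51%) and 12 of 54 for RES mice (background 9.67%) vs. CON mice in Ly6Clow monocytes, with 3 between SUS and RES mice (background 3.79%). In B cells 3, 3 and 1 of 48 were under it in SUS vs. CON, in RES vs. CON and between stressed groups, against 3.42%, 3.18% and 1.36% of all genes. In T cells 5, 5 and 4 of 52 were under it, against 4.8%, 4.11% and 2.39%. In Ly6Chigh monocytes edgeR and DESeq2 called 0 between SUS and RES mice, with 2 of 54 at an unadjusted p under 0.05 (background 3.66%). DESeq2 called 2 in Ly6Clow monocytes (Cd14 and Ikbke, in SUS and in RES mice vs. CON mice), 0 in B cells and 1 per contrast in T cells (Lgmn or Ccl4). The backgrounds given here are those of edgeR. The share of all genes called by DESeq2 was not computed, so its counts have no background.

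The pathway genes called in Ly6Chigh monocytes of SUS vs. CON mice were Cd14, Lbp, Myd88 and Ctsl, which rose, and Cxcl10, which fell. Cd14, the co-receptor that hands lipopolysaccharide to TLR4, rose from 14.8 ± 5.47 in CON to 42.7 ± 16.3 CPM in SUS mice (log2 fold change 1.48, SE 0.31, adjusted p = 0.00368, edgeR), and to 38.9 ± 19.1 CPM in RES mice (1.37, adjusted p = 0.0185). Lbp, the lipopolysaccharide-binding protein, rose from 5.74 ± 2.73 to 28.5 ± 10.4 CPM in SUS mice (2.27, SE 0.36, adjusted p = 0.000976) and to 19.2 ± 8.11 CPM in RES mice (1.72, adjusted p = 0.0142). The RES call of Cd14 was lost without RES replicate 3 or 6 (adjusted p = 0.0633 and 0.0515). Ly96, the TLR4 partner MD-2, was at 6.37 ± 2.04, 6.02 ± 3.52 and 6.09 ± 2.41 CPM in CON, SUS and RES mice.

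Myd88 rose from 103 ± 14.9 in CON to 251 ± 91.3 CPM in SUS mice (1.26, SE 0.24, adjusted p = 0.00206, edgeR). In RES mice it had 205 ± 83.3 CPM (0.98, adjusted p = 0.0240), below the fold threshold, which it passed in 6 of 12 fits with a library left out. Ctsl, cathepsin L, which cleaves endosomal TLRs into their active form, rose from 22.7 ± 4.35 to 59.5 ± 26.8 CPM in SUS mice (1.35, SE 0.27, adjusted p = 0.00231). Of the 5 receptor-processing proteases 4 passed the adjusted p alone in SUS vs. CON mice, all higher, against 12.6% of all genes (Ctsl, Ctsb at 0.70, Ctss at 0.57 and Lgmn at 0.88). In RES vs. CON mice 3 of the 5 passed it, all higher, against 4.97% of all genes, and 0 did between SUS and RES mice. Cxcl10, an interferon-induced chemokine downstream of TLRs, fell from 9.43 ± 0.896 to 2.29 ± 1.85 CPM (-2.08, SE 0.56, adjusted p = 0.0165). The SUS calls of these 5 genes held in 12 of 12 fits with a library left out.

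Cd14 had the same direction in Ly6Clow monocytes, with 2.31 ± 1.19 CPM in CON mice, against 7.42 ± 2.56 (SUS) and 6.11 ± 2.53 CPM (RES). The SUS difference of 1.68 (SE 0.38) had an adjusted p of 0.0538 in edgeR. DESeq2 called it in SUS and in RES mice, and edgeR called it without the low-count filter and without SUS replicate 6 (adjusted p = 0.0458, edgeR). Unc93b1 had 763 ± 69.8, 985 ± 218 and 1047 ± 200 CPM in CON, SUS and RES mice in Ly6Chigh monocytes, with a SUS difference of 0.33 (adjusted p = 0.140, edgeR).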

How the data were processed

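RNA of sorted leukocytes was sequenced after preparation with a stranded total RNA kit. The authors mapped reads to mm10 with HISAT2 and counted them on genes with HTSeq, and the deposited table holds raw counts per gene and library, without normalization. Of 52636 genes, 52489 matched GENCODE M21 by Ensembl identifier, which gave symbols and exon lengths. Genes kept by filterByExpr were normalized by TMM and fitted per cell type over the 3 groups with edgeR 4.0.16 (R 4.3.3, limma 3.58.1). Contrasts were tested with the robust quasi-likelihood F test, and p-values were adjusted by Benjamini-Hochberg over all genes tested. Cell types were compared over the 22 CON libraries and monocyte populations by interaction terms. Standard errors are the log2 fold change over the square root of F. Single levels were compared on log2(CPM + 0.5) by exact permutation tests, two-sided. The fits were tested on simulated data.

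The members and pathway lists were chosen with earlier results of these data known. The text names the 10 members in each comparison, pathway genes called in a stress contrast with others of the lists for context, chosen after their values were seen, and the 3 genes most like each member, which for Tlr4 are not reported here. Alternatives were DESeq2 1.42.0, its size factors, no low-count filter, other samples in the fit, the longest transcript as length, each library left out, and 0.1 or 1 CPM as pseudocount. Shares of all genes called are those of edgeR, and none was computed for DESeq2. The smallest mean squared difference between replicates of a group, 26.1 times sampling noise, gave no sign of a library deposited more than once within a group. Libraries of different groups were not compared in this way.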

Additional observations from a re-analysis of the deposited data

Results flagged for a closer look

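Of 116 groups of 4 to 6 libraries examined for the 10 members, 19 had a highest or lowest library that stood apart by Dixon's criterion, which chance alone gives in about 1 in 20 groups. In monocytes these were the highest library of Tlr1 in Ly6Chigh RES mice (26.0 CPM) and Ly6Clow CON mice (17.2 CPM), the highest of Tlr7 in Ly6Chigh CON mice (302 CPM) and the lowest of Tlr7 in Ly6Clow SUS mice (191 CPM). In B cells of RES mice, the highest libraries of Tlr7 (46.4 CPM), Tlr3 (5.23 CPM), Tlr13 (0.726 CPM) and Tlr8 (0.473 CPM) stood apart, and in B cells of SUS mice that of Tlr8 (1.41 CPM). In T cells the highest library stood apart for Tlr1 in RES mice (41.2 CPM), for Tlr4 in CON (2.14 CPM), SUS (0.746 CPM) and RES mice (0.922 CPM), and for Tlr8 in CON (1.97 CPM), SUS (1.08 CPM) and RES mice (2.68 CPM). In SUS mice it also stood apart for Tlr2 (5.27 CPM), Tlr9 (2.34 CPM) and Tlr11 (0.226 CPM). Of the T cell values, that of Tlr11 comes from 8 counts, those of Tlr4 from 31 to 52 and those of Tlr8 from 45 to 143.

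Library 70, labelled T cells of a RES mouse and left out, lay above all T cell CON libraries for 6 members, in CPM normalized over all 70 libraries. It had 64.5 CPM of Tlr1, 10.6 CPM of Tlr2, 3.76 CPM of Tlr3, 4.62 CPM of Tlr4, 22.9 CPM of Tlr7 and 156 CPM of Tlr9. For Tlr9, T cell CON libraries reached 2.79 CPM and B cell CON libraries ran from 101 to 168 CPM. Library 52, labelled B cells, had 0.425 CPM of Tlr9 and 35.7 CPM of Tlr1.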

How the results depend on the processing

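The count of called members moved by more than 1.5 times in 4 comparisons. For SUS vs. CON mice in Ly6Clow monocytes it was 1, became 0 with those 2 groups alone in the fit, and ran from 0 to 1 with a library left out. For SUS vs. CON mice in Ly6Chigh monocytes it was 0 and became 1 with DESeq2 and 1 with those 2 groups alone, and for RES vs. CON mice in Ly6Clow monocytes it was 0 and became 1 with DESeq2. For Ly6Chigh vs. Ly6Clow monocytes it was 0 and became 1 with those 2 cell types alone, an alternative chosen after seeing the data. Calls were both lost and gained in the fits with fewer libraries, which estimate the spread from those samples alone. The cause of these differences, and of the DESeq2 differences, was not tested. With a library left out, 4 to 6 members were called in B cells vs. T cells (5 reported) and 9 to 10 in Ly6Chigh monocytes vs. T cells (10 reported). Counts of called members stayed within 1.5 times of the reported count under DESeq2 size factors, without the low-count filter, with libraries 52 and 70 kept under their labels, and with all 12 groups in the fit. No result of a member or named pathway gene changed sign among those tested under an alternative. Only fold changes and exact tests with an unadjusted p under 0.05 as reported were followed, so a change of sign was unlikely from the start. The 12 exact tests with a p under 0.05 kept their side of it with pseudocounts of 0.1 and 1 CPM, and the order of members per kb was the same with the longest transcript as length. Another scaling moved the median of all genes by at most 0.03 on the log2 scale in a stress contrast. No paired analysis was possible because the labels name no mouse and the replicate numbers follow the order of deposit, which names libraries without pairing them. The division of T cell libraries by Spi1 falls on replicates 1 and 2, and whether equal numbers share a batch was not tested. Members at a few counts per library, such as Tlr4, Tlr8 and Tlr11 in T cells, allow no comparison between stress groups at this depth.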

Other observations

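The genes whose levels most resembled a member over the 12 group means of log2(CPM + 0.5), among 14793 genes with a mean of at least 1 CPM, are given as a description over points that share libraries. For Tlr13 they were Naip2 (Pearson's r = 0.999), Clec4a1 and Sirpb1b, for Tlr8 Clec4a3 (0.998), Alpk1 and Serpinb10, and for Tlr7 Lrrc8d (0.999), Nxt2 and Naip5. For Tlr9 they were Ly86 (0.997), Arhgap17 and Rogdi, for Tlr2 Arhgap30 (0.996), Rab31 and Daglb, and for Tlr6 F10 (0.996), Alox5ap and Cmpk1. For Tlr1 they were Rbm38 (0.984), Zfp94 and Ctnnal1, for Tlr11 Rnf150 (0.980), Mrc1 and Cyp51, and for Tlr3 Loxl3 (0.969), Gm6377 and Gm26632. Among the members themselves, Tlr8 and Tlr13 were most alike (r = 0.997), and Tlr1 and Tlr13 least (r = -0.914). Ly86 encodes MD-1, a secreted partner of the TLR4 homologue CD180.

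Tlr5 and Tlr12, mouse TLR genes outside the 10 members, had patterns of their own. Tlr5, the flagellin receptor, had 11.8 ± 5.66 CPM in Ly6Chigh and 1.06 ± 0.616 CPM in Ly6Clow monocytes of CON mice and at most 1 count per library in B cells of CON mice. Tlr12 had 23.3 ± 3.19 CPM in T cells, 5.34 ± 1.14 CPM in B cells, 2.64 ± 0.819 CPM in Ly6Clow and 0.747 ± 0.919 CPM in Ly6Chigh monocytes of CON mice. Neither was called in a stress contrast by edgeR.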
